A study of Mus musculus with 8 samples.

Results

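The genes described here carry out fatty acid oxidation in the liver or are known targets of PPAR alpha. There were 34 of them, chosen by name, and they were read from the liver arrays of 4 NZO mice (NZO/HiBomDife) and 4 B6 mice (C57BL/6). All 8 mice were males of 6 weeks on a high fat diet with 45% fat, so the diet was shared by both strains and the strain was the only labelled difference. NZO is an inbred strain that becomes obese and prone to diabetes, whereas B6 stays lean and resistant, and the comparison asks which genes of this pathway differ between them in the liver. The strains differ at many loci at once, and no single locus can be assigned from 2 strains. Each mouse gave 1 piece of liver and 1 array with a single dye, and arrays are named by strain and mouse number (NZO 007, NZO 003, NZO 009 and NZO 011 against B6 011, B6 010, B6 015 and B6 009). Of the 34 members, 32 had a probe above background and were tested among 20139 genes. All levels below are log2 signal relative to the 75th percentile of the same array, read at the brightest probe of the gene, and a log2 fold change is NZO minus B6. The level of one gene is not set against that of another, because probes differ in how brightly they bind.

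Fatty acids are activated to acyl-CoA before they can be oxidised. Long chains then cross into the mitochondrion as carnitine esters, and the mitochondrial spiral removes acetyl-CoA units in repeated rounds of dehydrogenation, hydration, a further oxidation and thiolysis, while electron transfer flavoprotein carries the electrons to the respiratory chain. Peroxisomes shorten very long, branched and dicarboxylic chains by a parallel set of enzymes. PPAR alpha is a nuclear receptor that binds fatty acids, pairs with RXR and switches on genes of both compartments in the liver during fasting or a load of fat.

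The identity of the tissue was checked first. All 5 hepatocyte markers (Alb, Ttr, Apoa1, Cps1 and Tat) were above background, with Alb, the plasma albumin, at 10.66 to 11.24 on every array. Of 6 adipocyte markers, Adipoq, Plin1 and Lep were not well above background, while Fabp4 (1.53 to 2.21), Cidec (-3.23 to -2.22) and Car3 (8.66 to 9.32) were. Array NZO 007 had the highest signal of skeletal muscle genes, and B6 010 had the next highest. Myh4, a fast myosin heavy chain, was at 2.86 there and at -4.77, -4.06 and -2.81 on the other NZO arrays. Acta1, skeletal actin, was at 2.81 on NZO 007 against -4.13, -3.70 and -2.95. On B6 011, B6 010, B6 015 and B6 009, Myh4 was at -1.20, 1.66, -0.66 and -2.37. Acta1 was at -1.56, 0.66, -0.96 and -3.09 on the same arrays. Of the 4 muscle markers, 3 could be tested and Ckm was not above background in all arrays of either strain. The summed muscle signal, in log2, was 4.15 on NZO 007 and -2.88, -2.64 and -1.73 on NZO 003, NZO 009 and NZO 011, and among B6 arrays it was -0.06 on B6 011, 2.51 on B6 010, 0.49 on B6 015 and -1.34 on B6 009. The counts below were therefore also made without NZO 007. In pieces of whole liver, fewer cells of a type and less RNA per cell cannot be told apart.

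Counts of members past each threshold are given beside the share of all genes past it. The methods set 2 thresholds, p at 0.05 and 0.7 for the size of the log2 fold change, and do not say whether the p was adjusted. Past both, with the p taken here without adjustment, 2 members were higher in NZO (Pdk4 and Acot3), which is 6.25% of the 32 tested against 5.25% of all genes. No member was lower past these thresholds, against 6.61% of all genes. After Benjamini-Hochberg adjustment in limma over all genes, 1 member was higher at any fold (Hadha), against 7.35% of all genes, and 0 were lower, against 7.43%; at an unadjusted p of 0.05 and any fold, 5 members (15.6%) were higher, against 14.5% of all genes, and again 0 lower, against 13.7%. All 4 NZO arrays lay above all 4 B6 arrays for 2 members, Hadha and Acadvl, against 11.9% of all genes, and below them for 0 members, against 10.4%. The 95% interval of the log2 fold change lay wholly inside -0.7 to 0.7 for 24 of the 32 members, against 55.0% of all genes. The median log2 fold change was 0.06 over the members and 0.03 over all genes. Without NZO 007 the counts were 2 higher past the thresholds of the methods and 2 higher after adjustment, Hadha and Acot3, and 0 lower by either rule. Of the 20334 genes tested without it, 1142 were higher and 1497 lower past the thresholds of the methods. After adjustment 1467 of them were higher and 1397 lower.

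**Figure D1:**
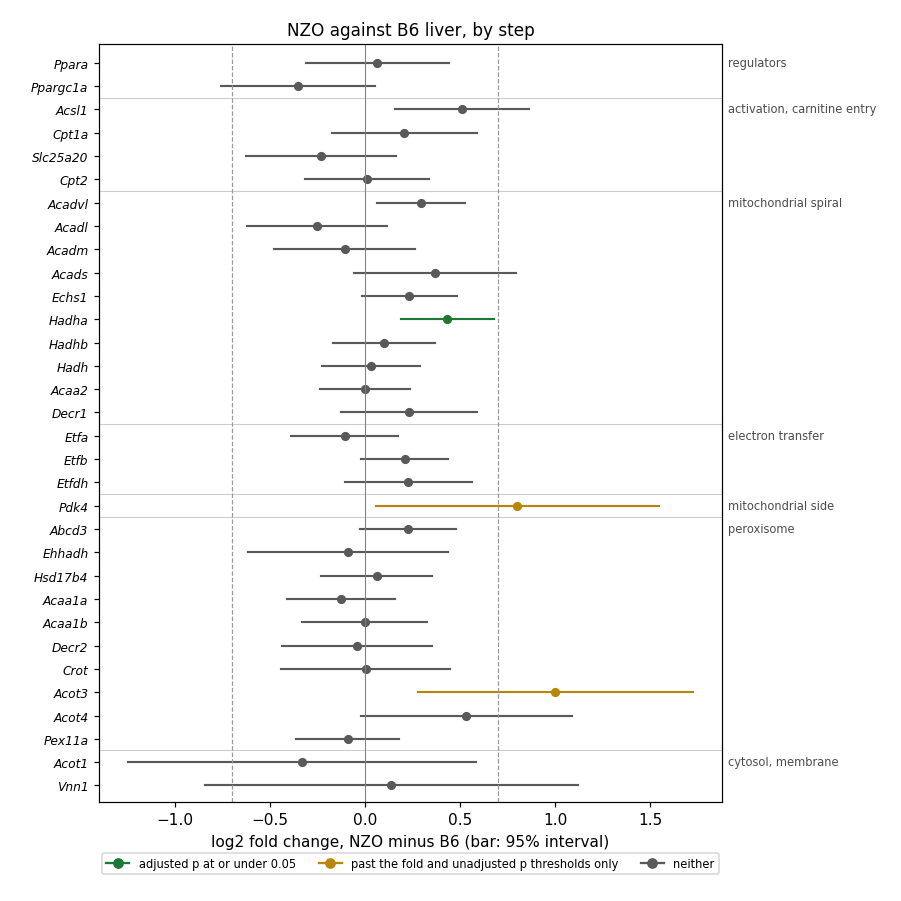
Log2 fold change of each tested member (NZO minus B6, horizontal axis) with its 95% interval, ordered by step of the pathway, with dashed lines at the fold threshold of 0.7. Hadha alone passed the adjusted threshold at 0.43, and Pdk4 at 0.80 and Acot3 at 1.00 passed the fold and unadjusted thresholds only.

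The receptor itself, Ppara, was at 5.61, 5.70, 6.07 and 5.46 in NZO 007, 003, 009 and 011 and at 5.44, 5.92, 5.74 and 5.49 in B6 011, 010, 015 and 009. The strains overlapped, with NZO 009 the highest array and B6 011 the lowest, and the log2 fold change was 0.06 (95% interval -0.31 to 0.44, adjusted p = 0.83 in limma). The other 2 Ppara probes gave 0.39 and 0.23. Ppargc1a, a coactivator of PPAR alpha that is raised by fasting, was at -0.33, -0.10, -0.73 and -0.16 in NZO and at -0.26, 0.09, 0.31 and -0.04 in B6. NZO 009 was the lowest array, but the strains overlapped, with a log2 fold change of -0.35 (SE 0.18, adjusted p = 0.23), and the second Ppargc1a probe gave 0.03.

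At the entry of the pathway, Acsl1, the main long-chain acyl-CoA synthetase of the liver, was at 7.73, 8.04, 8.01 and 7.57 in NZO and at 7.41, 7.57, 7.05 and 7.28 in B6. NZO 011 and B6 010 met at 7.57, and the other NZO arrays were above all B6 arrays. The log2 fold change of 0.51 (SE 0.15, n = 4 per strain) had an unadjusted p of 0.010 and an adjusted p of 0.063 in limma, and the second probe gave 0.48. Cpt1a, the carnitine palmitoyltransferase of the outer membrane and the regulated step of entry, was at 5.38, 5.72, 5.82 and 5.13 in NZO and at 5.22, 5.40, 5.45 and 5.15 in B6. NZO 003 and NZO 009 were above all B6 arrays and NZO 011 was below them, giving 0.21 (95% interval -0.17 to 0.59, adjusted p = 0.46). The carrier Slc25a20, which exchanges acylcarnitine for carnitine across the inner membrane, gave -0.23 (adjusted p = 0.43), and Cpt2, which returns the chain to CoA, gave 0.01 (95% interval -0.32 to 0.34). None of these 4 genes passed the adjusted threshold.

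In the mitochondrial spiral the clearest difference was in Hadha, the alpha subunit of the trifunctional protein, which hydrates and oxidises long-chain intermediates. Hadha was at 3.08, 3.39, 3.11 and 3.03 in NZO 007, 003, 009 and 011 and at 2.68, 2.82, 2.73 and 2.64 in B6 011, 010, 015 and 009. Every NZO array was above every B6 array. The mean rose from 2.72 ± 0.08 (SD, n = 4) in B6 to 3.15 ± 0.16 (SD, n = 4) in NZO, a log2 fold change of 0.43 (SE 0.11) or 1.35-fold, with an adjusted p of 0.029 in limma. The adjusted p rose above 0.05 without NZO 009 (0.055), B6 011 (0.076), B6 015 (0.067) or B6 009 (0.089), whereas the log2 fold change stayed between 0.35 and 0.47 with any 1 array left out. The adjusted p was also above 0.05 with the deposited table as given (log2 fold change 0.25, adjusted p = 0.17), without the filter on dim probes (0.084), with slide as a fixed term (0.135) and on the arrays of scan day 1 (0.233) or scan day 2 alone (0.193). Within the arrays of scan day 1 (3 NZO, 2 B6) Hadha differed by 0.40 and within scan day 2 (1 NZO, 2 B6) by 0.42. On the slide that held both strains (1 NZO, 2 B6) the difference was 0.61. Its probe lies at chr5:30446215-30446274 in the mm9 build, as do all probe positions below.

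Hadhb, the beta subunit of the same complex and the thiolase that works with Hadha, was at 5.29, 5.73, 5.61 and 5.40 in NZO and at 5.40, 5.49, 5.30 and 5.44 in B6. The strains overlapped and the log2 fold change was 0.10 (95% interval -0.17 to 0.37, adjusted p = 0.63). Whether Hadha and Hadhb differ from each other in their fold change was not tested.

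Among the acyl-CoA dehydrogenases, which carry out the first oxidation for chains of different length, Acadvl (very long chains) was at 7.97, 8.30, 8.02 and 8.04 in NZO and at 7.84, 7.85, 7.72 and 7.75 in B6. All NZO arrays were above all B6 arrays, but the log2 fold change of 0.29 (SE 0.10) had an adjusted p of 0.096. Acads (short chains) was at 3.73, 4.23, 3.44 and 3.88 in NZO and at 3.63, 3.12, 3.56 and 3.48 in B6. Only NZO 009 fell among the B6 arrays, and the log2 fold change was 0.37 (SE 0.19, adjusted p = 0.24). Acadl (long chains) and Acadm (medium chains) had values of the other sign, -0.25 (adjusted p = 0.35) and -0.11 (adjusted p = 0.70), with NZO 007 the lowest array for both. None of these 4 dehydrogenases passed the adjusted threshold.

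The remaining spiral enzymes did not pass the adjusted threshold. Echs1, the short-chain hydratase, gave a log2 fold change of 0.23 (adjusted p = 0.21), Decr1, which prepares unsaturated chains, 0.23 (adjusted p = 0.39), Hadh, the short-chain dehydrogenase, 0.03 (adjusted p = 0.89), and Acaa2, the mitochondrial thiolase, 0.00 (95% interval -0.24 to 0.23). The electron transfer genes Etfa, Etfb and Etfdh gave -0.11, 0.21 and 0.23, with adjusted p from 0.22 to 0.61, and overlapped between the strains. The other probes of Etfb gave 0.12 and -0.08.

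Pdk4, a kinase that shuts off pyruvate dehydrogenase when fat is the fuel, was at -0.44, 0.05, 0.69 and 0.78 in NZO 007, 003, 009 and 011 and at -0.82, 0.04, -0.98 and -0.37 in B6 011, 010, 015 and 009. NZO 009 and NZO 011 were higher than all other arrays, and NZO 007 was below 2 of the B6 arrays. Pdk4 passed the thresholds of the methods at a log2 fold change of 0.80 (SE 0.32, unadjusted p = 0.038), with an adjusted p of 0.15. This call was lost without NZO 009 (log2 fold change 0.66), NZO 011 (0.63), B6 011 (0.70), B6 015 (0.65) or B6 009 (0.85); for B6 011 and B6 009 the fold threshold was still met and the p was not. The call was also lost with normexp, a background correction by a fitted model (0.56), with the deposited table as given (0.46) or scaled to its 75th percentile (0.65), with scan day (0.68) or slide (0.52) as a fixed term and with slide as a random block (0.74). The difference was 0.97 within scan day 1 and 0.15 within scan day 2, and 0.52 on the slide with both strains. The second mitochondrial side enzyme, the thioesterase Acot2, was well above background on 2 of 4 NZO and 0 of 4 B6 arrays. Its level was -4.23, -3.83, -3.46 and -4.21 in NZO and -4.50, -4.27, -5.87 and -4.57 in B6, and no fold is given.

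**Figure D2:**
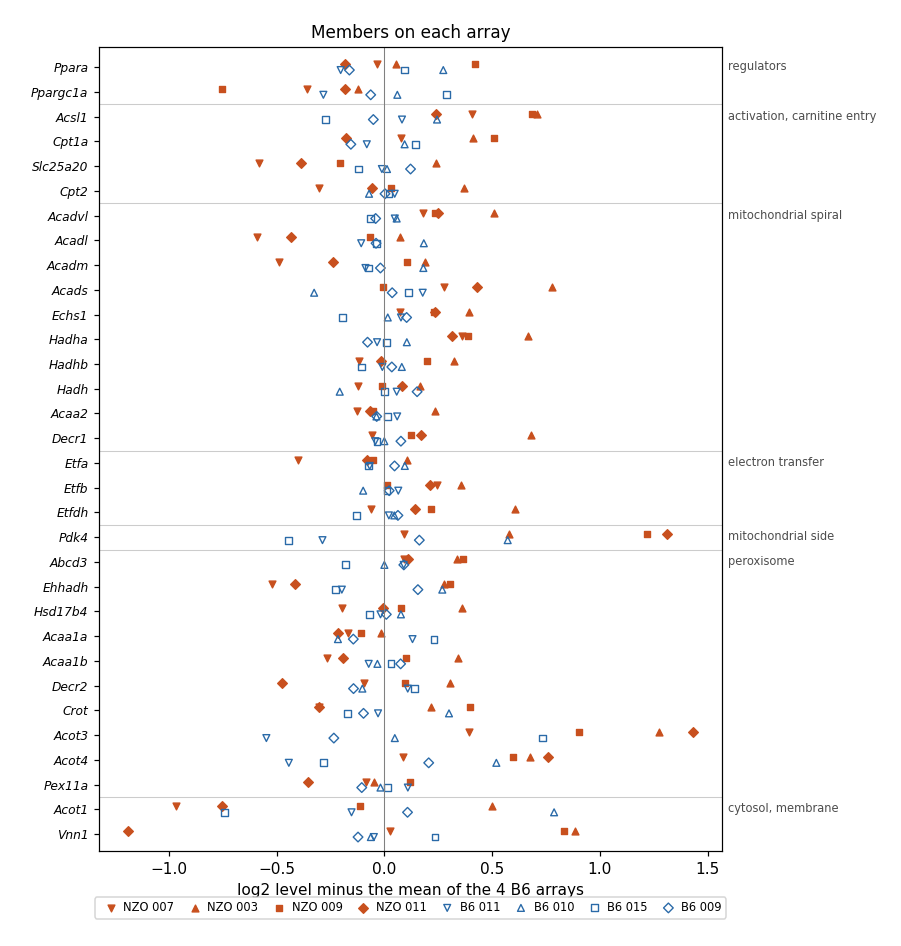
Log2 level of each tested member on each array, minus the mean of the 4 B6 arrays (horizontal axis), with NZO arrays filled and B6 arrays open and 1 marker shape per mouse. For Hadha and Acadvl the filled markers lie to the right of all open ones, and NZO 003 is the rightmost NZO array for most members.

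Of the 10 peroxisomal members tested, 0 passed the adjusted threshold, and the 95% interval of 8 lay inside -0.7 to 0.7. Ehhadh, the bifunctional enzyme of the peroxisomal spiral and a gene that PPAR alpha agonists raise, was at 3.30, 4.10, 4.13 and 3.41 in NZO and at 3.63, 4.09, 3.60 and 3.98 in B6. NZO 007 and NZO 011 were the lowest arrays and NZO 003 and NZO 009 the highest, so the log2 fold change was -0.09 with a 95% interval from -0.62 to 0.44 (adjusted p = 0.83). Abcd3, which imports acyl-CoA into the peroxisome, gave 0.22 (SE 0.11, adjusted p = 0.23). Hsd17b4, the D-bifunctional protein, gave 0.06 (95% interval -0.23 to 0.35).

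The thiolases Acaa1a and Acaa1b gave -0.13 (95% interval -0.41 to 0.15) and 0.00 (95% interval -0.33 to 0.33). Decr2, the peroxisomal dienoyl-CoA reductase, gave -0.04, Crot, which makes carnitine esters of shortened chains for export, gave 0.00, and Pex11a, a membrane protein of peroxisome division, gave -0.09, with adjusted p from 0.65 to 1.00. These genes and the importer and bifunctional enzymes above are the 8 with an interval inside -0.7 to 0.7. Abcd2, a further importer, was well above background on 0 of 4 NZO and 1 of 4 B6 arrays and is given no fold.

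The thioesterases of the Acot cluster on chromosome 12, which split acyl-CoA into free fatty acid and CoA, are near-identical genes, so the probes are shown before their values. The sequences are the first 30 bases of each probe of 60 bases, 5′ to 3′, and capitals mark a run of alternating a and c.
Acot1, chr12:85358561-85358590: tctatggaaactggagctatccaagaaaag
Acot3, brighter probe, chr12:85400452-85400481: gtgtACACACACACAtatacacacaagcac
Acot3, dimmer probe, chr12:85399468-85399497: tcatcaatggctctatatccaacatcggcg
Acot4, chr12:85384821-85384850: tgctggatgacatgaaattcatgtttaggg
Acot6, brighter probe, chr12:85451951-85451980: caagccagtagctttcacttctcttttctc
The longest run shared by the probes of different Acot genes was 9 bases of 60, and that between Acaa1a and Acaa1b 6 bases. This sets probe against probe, and the probes lie at different places in their genes. No probe was compared with the transcripts of the other genes, so binding to a near-identical gene was not tested. The Acot3 probe used has an alternating run of 11 bases.

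Acot3, a peroxisomal thioesterase, was at -2.52, -1.64, -2.01 and -1.48 in NZO 007, 003, 009 and 011 and at -3.46, -2.87, -2.18 and -3.15 in B6 011, 010, 015 and 009. NZO 007 was below B6 015, and the other 3 NZO arrays were above all B6 arrays. It passed the thresholds of the methods at a log2 fold change of 1.00 (SE 0.32, unadjusted p = 0.013), or 2.0-fold, with an adjusted p of 0.073. The call was kept with any 1 array left out, at 0.82 to 1.25, and the difference was 0.81 within scan day 1, 0.78 within scan day 2 and 0.88 on the slide with both strains. With slide as a fixed term the call was lost (0.88, adjusted p = 0.29). With another processing of the signal the log2 fold change fell under the fold threshold, to 0.43 with normexp (adjusted p = 0.042), 0.44 with the deposited table (adjusted p = 0.056) and 0.63 with that table scaled to its 75th percentile (adjusted p = 0.026), so that the adjusted threshold was passed in the first and the last of these. The value rests on the probe with the alternating run, since the dimmer Acot3 probe was not well above background on any array.

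Its neighbour Acot4 was at -0.48, 0.11, 0.03 and 0.20 in NZO and at -1.01, -0.05, -0.85 and -0.36 in B6. NZO 007 was below 2 B6 arrays and the other 3 NZO arrays were above all of them, giving 0.53 (SE 0.24, adjusted p = 0.20). Acot1, the cytosolic enzyme of the cluster, varied widely, with 1.23, 2.70, 2.09 and 1.45 in NZO and 2.05, 2.99, 1.46 and 2.31 in B6, and gave -0.33 (SE 0.40, adjusted p = 0.63). Vnn1, a pantetheinase on the cell surface, was at 1.73, 2.58, 2.54 and 0.51 in NZO against 1.65, 1.64, 1.94 and 1.58 in B6. Its NZO arrays lay on both sides of the B6 arrays, and the 95% interval ran from -0.85 to 1.12. The interval of Acot1 ran from -1.25 to 0.58, so for both genes the interval reaches past 0.7 in size.

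Mitochondrial and peroxisomal steps were compared by their members. The median log2 fold change was 0.21 over the 17 mitochondrial members tested, with 12 values above 0, and 0.00 over the 10 peroxisomal members, with 5 above 0, beside 0.03 over all genes. Of all 20139 genes, 10743 had a value above 0. The mitochondrial median was 0.08 without NZO 003 and 0.10 without NZO 009, 0.093 with quantile normalization, 0.094 with normexp, 0.098 with the probes of each gene averaged and 0.115 with the scaled deposited table. It was -0.10 on the arrays of scan day 2 alone and -0.074 in the deposited table as given, where that of all genes was -0.15. The peroxisomal median was -0.117 with quantile normalization and -0.084 with normexp. The means did not show the difference between compartments. Relative to the B6 mean, the NZO arrays averaged 0.14 ± 0.20 (SD, n = 4) over the mitochondrial members and 0.15 ± 0.22 (SD, n = 4) over the peroxisomal ones. The largest log2 fold changes were those of Pdk4 (0.80) among the former and Acot3 (1.00) and Acot4 (0.53) among the latter. Such values weigh more on a mean than on a median. The mitochondrial minus peroxisomal difference per array was 0.02, 0.02, -0.12 and 0.07 in NZO 007, 003, 009 and 011 and 0.08, -0.04, -0.08 and 0.05 in B6 011, 010, 015 and 009, so the strains overlapped.

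The NZO arrays moved in both compartments together. The mitochondrial mean was -0.09, 0.39, 0.17 and 0.10 in NZO 007, 003, 009 and 011, and the peroxisomal mean was -0.11, 0.37, 0.28 and 0.03. NZO 003 was thus the highest array and NZO 007 the lowest of all 8 by both. Among the 32 members, NZO 003 was the highest NZO array for 23 and NZO 007 the lowest for 21, whereas over all genes they were so for 37.1% and 39.0%. NZO 007 was the array with the highest muscle signal, and the part of that signal in its low values was not tested. The B6 arrays lay between -0.06 and 0.04 by the mitochondrial mean and between -0.09 and 0.08 by the peroxisomal mean. The members share each array's scaling, so these values are a description of 8 arrays.

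**Figure D3:**
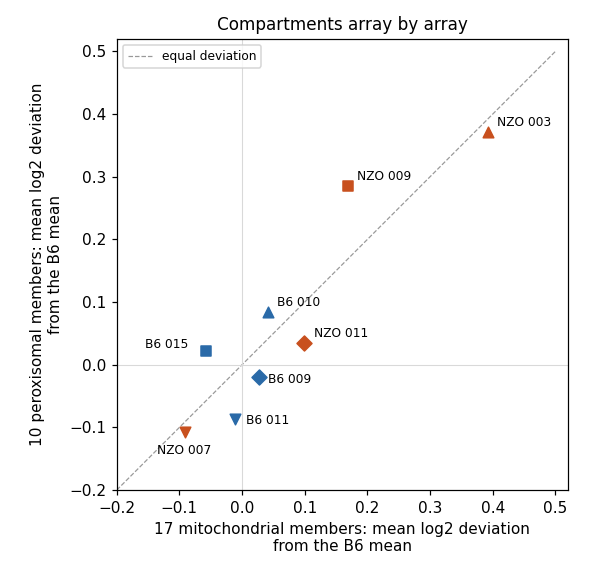
Mean log2 deviation from the B6 mean over the 17 mitochondrial members (horizontal axis) and the 10 peroxisomal members (vertical axis), 1 point per array, with a dashed line of equal deviation. NZO 003 is at 0.39 and 0.37, NZO 007 at -0.09 and -0.11, and the B6 arrays cluster around 0.

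Further genes of the pathway were read from lists that, like the members, were chosen with earlier results of these data known. The counts below are therefore a description of these lists. Of 19 other PPAR alpha targets, 4 were higher in NZO after adjustment and 0 lower, beside 7.35% and 7.43% of all genes. The median log2 fold change of these targets was 0.20. Cyp4a14, a fatty acid omega-hydroxylase that is among the strongest PPAR alpha targets of mouse liver, was at 1.71, 3.70, 2.48 and 1.44 in NZO 007, 003, 009 and 011 and at -1.48, 0.17, -0.52 and -0.63 in B6 011, 010, 015 and 009. All NZO arrays were above all B6 arrays, and Cyp4a14 rose by 2.95 in log2 (SE 0.53, adjusted p = 0.0068 in limma), or 7.74-fold. With any 1 array left out the adjusted p in limma was 0.0079 to 0.023, but in some other setting it was above 0.05. Over all settings the log2 fold change ran from 2.39 to 3.88.

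Fgf21, a hormone that the liver secretes in fasting, was at 0.65, 0.20, 0.84 and -1.72 in NZO and at -1.33, -2.08, -3.53 and -2.88 in B6. NZO 011 was within the B6 range and the other 3 were above it. Fgf21 rose by 2.45 (SE 0.65, adjusted p = 0.040), or by 1.35 (adjusted p = 0.019) with normexp. The adjusted p was above 0.05 without any 1 of NZO 007 (0.089), NZO 003 (0.099), NZO 009 (0.093), B6 010 (0.077), B6 015 (0.096) or B6 009 (0.104). It was also above 0.05 without the filter on dim probes (0.085), and in some other setting it was higher than any of these values. The log2 fold change was positive in every setting.

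Gpd1, which makes glycerol 3-phosphate, rose by 0.61 (adjusted p = 0.014), and Mgll, which cleaves monoglycerides, rose by 0.53 (adjusted p = 0.046), each with no overlap between strains. Gpd1 was at 0.37 (adjusted p = 0.090) with the deposited table as given, and its adjusted p was also above 0.05 on either scan day alone (0.140 and 0.173). The adjusted p of Mgll was above 0.05 without any 1 of 6 arrays, NZO 003, NZO 009, NZO 011, B6 011, B6 010 and B6 009. With 1 array left out it reached 0.115. For Mgll it was also above 0.05 with normexp, with quantile normalization and with the scaled deposited table. The same held with the deposited table as given (log2 fold change 0.31, adjusted p = 0.224) and without the filter on dim probes (0.109). With scan day as a fixed term it was 0.0714, and in some other setting it was higher than any of these values. The log2 fold change of Mgll was positive in every setting.

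Of 17 other genes listed with mitochondrial oxidation, not all of them for mitochondrial proteins, 2 were higher and 1 lower after adjustment, beside 7.35% and 7.43% of all genes. Acad10, an acyl-CoA dehydrogenase, rose by 0.75 (adjusted p = 0.0028) and Acsm5, a medium-chain acyl-CoA synthetase, by 0.48 (adjusted p = 0.0059). Acsm5 was at 0.24 (adjusted p = 0.28) with the deposited table as given, and its adjusted p was also above 0.05 with slide as a fixed term (0.191) and on either scan day alone (0.083 and 0.216). Acsm3, of the same family as Acsm5, fell by 0.83 (adjusted p = 0.0032), and its 3 probes ran from -0.83 to -1.14. With slide as a fixed term Acsm3 was at -0.55 (adjusted p = 0.15). Each of these 3 genes had no overlap between strains.

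Of 22 other peroxisomal genes, 3 were higher and 3 lower after adjustment, beside 7.35% and 7.43% of all genes. Slc25a17, a carrier of the peroxisomal membrane for cofactors such as CoA and FAD, was at 1.23, 1.45, 1.48 and 1.57 in NZO 007, 003, 009 and 011 and at 4.86, 4.64, 4.18 and 4.68 in B6 011, 010, 015 and 009. It fell by 3.16 in log2 (SE 0.16, adjusted p = 8.8e-06), or 8.93-fold, read at a single probe (chr15:81149365-81149424). Nudt19, a peroxisomal hydrolase of CoA, was at 2.50, 2.88, 2.70 and 2.83 in NZO and at 4.48, 4.50, 4.51 and 4.68 in B6, and fell by 1.82 (SE 0.11, adjusted p = 2.6e-05), also at a single probe (chr7:36332321-36332380). For both the strains were far apart, with every NZO array below every B6 array. Whether the strains differ in sequence under these probes, or under any other probe of this report, was not tested. The values are signals of the probes named. Acot6, the neighbour of Acot3 and Acot4, rose by 1.13 (adjusted p = 0.0031), though by 0.47 (adjusted p = 0.0024) with normexp, and its second probe, above background on 3 arrays of each strain, gave 0.23. Pxmp4, a peroxisomal membrane protein, rose by 0.88 (adjusted p = 0.0048), while its second probe gave -0.32 and the mean over both 0.28 (adjusted p = 0.17).

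None of 15 peroxins, the proteins that build peroxisomes, passed the adjusted threshold, and at an unadjusted p of 0.05 there was 1 higher and 1 lower, beside the 14.5% and 13.7% of all genes, with a median of -0.01. Among 17 partners and upstream regulators of the receptor, 1 passed: Med1, a Mediator subunit that binds nuclear receptors, was lower by 1.50 at its brightest probe (adjusted p = 7.8e-05), but its other 3 probes gave 0.32, -0.31 and 0.07. Over all 90 of these further genes the median was 0.08, with 9 higher and 5 lower after adjustment, beside 7.35% and 7.43% of all genes.

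**Figure D4:**
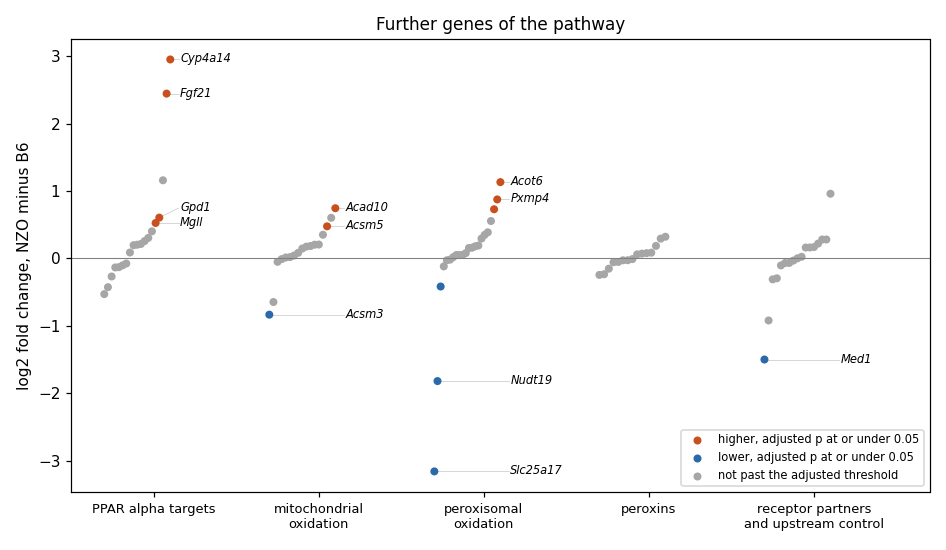
Log2 fold change (NZO minus B6, vertical axis) of 90 further pathway genes in 5 lists, 1 point per gene, coloured by whether the adjusted p was at or under 0.05. Cyp4a14 at 2.95 and Slc25a17 at -3.16 are the extremes, and the 15 peroxins lie near 0.

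PPAR alpha and RXR are known to bind pairs of AGGTCA-like repeats separated by 1 base, so the RefSeq promoters (GRCm38.p6, 250 bases before to 50 bases after the start) were searched on both strands. The table held 29 of the 34 members and 32851 promoters in all. The pattern AGGTCANAGGTCA was in 0 of the 29 members and in 0.04% of all promoters. The looser AGGNCANAGGNCA, tried next, was again in 0 members and in 0.381% of all promoters, and among the listed genes it was in Fabp1. The loosest pattern, NGGNCANAGGNCA, which contains the other 2, was in 1 member, Acot4, and in 0.798% of all promoters, and among the further genes it was also in Acox2, Pex11g and Rxra. The match in the 1 member and that in Fabp1, both on the minus strand, are shown in capitals.
Fabp1, plus strand, chr6:71199804-71199833: acaatcacTGACCTATGGCCTatatctgag
Acot4, plus strand, chr12:84038349-84038378: ggctcagccccgaagcaTGACCTTTGGCCG
Fabp1, the fatty acid binding protein of the liver, had a log2 fold change of 0.26 (adjusted p = 0.15) and Acot4, as above, 0.53 (adjusted p = 0.20), so neither passed the adjusted threshold. A match is a match of letters in this window, and sites farther away were not searched.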

How the data were processed

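Liver RNA of 4 NZO and 4 B6 mice was measured on 1-colour Agilent arrays. The deposited scanner output holds intensity values; per the file headers, their background-subtracted processed signal came from Agilent Feature Extraction 11.0.1.1, while the submitters' processing notes name Agilent Feature Extraction 9.1. In the deposited table, the values were the raw median intensities on 100% of spots (tolerance 0.01). Control spots were removed, as were the 96 to 137 spots an array that were marked as outliers, and 0 spots were saturated. The log2 of the processed signal minus the 75th percentile of each array was used. Of 55681 probes, 27643 exceeded background clearly on every array of at least 1 strain, and the brightest per gene gave 20139 genes. limma 3.58.1 (R 4.3.3, data.table version 1.17.8) compared the strains with Benjamini-Hochberg adjustment; Python 3.11.15, pandas 2.3.3, numpy 2.4.6 and matplotlib 3.10.9 made tables and plots. The fit was also tested on data simulated from these arrays. Probe names were matched to RefSeq genes by accession (27656), symbol (3401) or synonym (321), and 24303 kept the name in the files.

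The members and all gene lists were chosen with earlier results of these data known. All members were described by role, and of each further list the 4 genes with the largest change past the adjusted threshold were named, and 1 further gene that the rule names is not reported here; Fabp1 was named for its promoter match and the marker genes for the check of the tissue. Mouse numbers 009 and 011 occur in both strains, but the deviations of same-numbered arrays correlated at -0.258 and 0.005, so the numbers do not pair the mice. The 8 arrays came from 5 slides, with 2 scan days. Nothing in the labels says more than that each array is a separate mouse, and the number of arrays limits the precision. Alternatives changed the background correction, scaling, filter, choice of probe, block and test, or left out 1 array.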

Additional observations from a re-analysis of the deposited data

Results flagged for a closer look

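In 9 of 138 groups of 4 arrays tested, the highest or lowest array lay far from the other 3; chance flags about 1 in 20 groups. Of the 32 members tested, none was among them. Gpd1 was highest in NZO 003 at 7.93, and Nudt19 was highest among B6 arrays in B6 009 at 4.68. Of the marker genes, Acta1 at 2.81, Tnnt3 at 1.27 and Cd68 at 1.79 were highest among NZO arrays in NZO 007, the array with the highest muscle signal. Tat at 5.77 and Ctrb1 at -0.23 were lowest among B6 arrays in B6 011, and Itgax at -1.18 was highest and Cela1 at -2.55 lowest in B6 015.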

How the results depend on the processing

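With 4 arrays per strain and most members changing by less than 0.7, small differences cannot be told from the spread between mice. Over the 24 settings, 11 of the 32 members kept 1 sign and 21 did not, among them Cpt2, Crot, Hadh, Ppara, Acaa2 and Acaa1b. The log2 fold changes of Hadha (0.25 to 0.61), Pdk4 (0.15 to 1.33) and Acot3 (0.43 to 1.56) were positive in all of them. The count of members higher past the thresholds of the methods, 2 here, was 0 with normexp, with the deposited table as given and with that table minus its 75th percentile, and it was 1 with slide as a random block, slide as a fixed term, scan day as a fixed term, the t-test of the methods and the arrays of scan day 2 alone; with slide as a fixed term that 1 was Acads, and with 1 array left out the count was 1 to 3. The count higher after adjustment, 1 here, was 3 with normexp and with the deposited table minus its 75th percentile, 2 with scan day as a fixed term, and 0 with the deposited table as given, without the filter on dim probes, with slide as a fixed term, with the t-test and with the arrays of either scan day alone; with 1 array left out it was 0 to 2. The count lower past the thresholds of the methods was 1 without the filter on dim probes (Abcd2) and 1 on the arrays of scan day 2 alone (Acot1), and the count lower after adjustment was 1 with the deposited table as given (Ppargc1a); the t-test gave 0 lower by either rule. Of all 20139 genes, 1057 were higher and 1331 lower past the thresholds of the methods here, and 1481 and 1497 after adjustment. With normexp the same counts, in this order, were 509, 474, 1560 and 1320. With the deposited table as given they were 469, 1139, 752 and 2456. With that table minus its 75th percentile they were 707, 666, 1511 and 1312. Without the filter on dim probes they were 1464, 1692, 1063 and 1102 of 34779 genes. The call of Hadha was lost in 11 alternatives, the t-test (adjusted p = 0.062) and the replicate block (0.237) among them, and that of Pdk4 in 13, again with the t-test. With the block the mitochondrial median was 0.08, and the genes whose adjusted p rose above 0.05 included Gpd1 (0.171), Acad10 (0.13) and Acsm5 (0.222). Over the 24 settings, Cyp4a14, Nudt19, Med1, Acot6 and Pxmp4 each also had an adjusted p above 0.05 in some setting. Each of these genes stayed under 0.05 with any 1 array left out. Slc25a17 stayed under 0.05 in every setting. The deposited table as given has no scaling between arrays, and there the median of all genes was -0.15; relative to it the mitochondrial median of -0.074 was 0.08 and the peroxisomal median of -0.26 was -0.11. With slide as a fixed term, where only 1 NZO and 2 B6 arrays share a slide, the medians were 0.39 and 0.31, beside 0.10 over all genes. On scan day 2 alone the mitochondrial median was -0.10. With 1 array left out the mitochondrial median ran from 0.08 to 0.20 and the peroxisomal one from -0.09 to 0.09. With mouse number as a replicate block, 0 members were higher after adjustment and 2 past the thresholds of the methods; the block rests on the 2 shared numbers, 009 and 011, which do not pair the mice, and over all genes it cut the adjusted calls from 1481 higher and 1497 lower to 53 and 67. The scan days taken alone were chosen after seeing the data. Causes of these shifts were not tested.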

Other observations

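Markers of other cells gave values beside those of the pathway. Of 4 red blood cell genes, Hba-a1 (1.00, adjusted p = 0.018) and Alas2 (0.90, adjusted p = 0.0021) were higher in NZO after adjustment, Hbb-b1 (0.81) and Slc4a1 (0.61) were not, and their summed log2 level was 8.19 to 8.88 on NZO and 7.28 to 7.70 on B6 arrays. Of 5 leukocyte genes, Cd68 (-0.42) and Itgax were lower in NZO after adjustment, and Ptprc (-0.52), Lyz2 (0.41) and Cd3e (0.33) did not pass. Itgax had an adjusted p of 0.036 in limma, with every NZO array below every B6 array. It was well above background on 4 B6 but only 2 NZO arrays, so no fold is given. Of 6 adipocyte genes, 3 were tested and Car3, which the liver also expresses, was higher by 0.47 (adjusted p = 0.012). Of 6 exocrine pancreas genes, 2 were tested and 0 passed, also at an unadjusted p of 0.05. The part of these cells in the values of the pathway was not tested.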
